A study of Homo sapiens with 12 samples.

Results

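The cluster of miR-143 and miR-145 was examined in MV4-11 and Molm-14, human acute myeloid leukemia (AML) lines that carry an internal tandem duplication in the FLT3 receptor. Its members are the 3 mature miRNAs hsa-miR-143-3p, hsa-miR-145-5p and hsa-miR-145-3p, out of 1204 miRNAs in the count table. They were picked by name with results of these data in view. The rule names their arm ratios, their difference between the lines and their fall in Molm-14 cells without MPC1. Their values in the line comparison and in Molm-14 are therefore a description and carry no p. All 3 passed the filter on low counts, which kept 659 miRNAs. A further product of the same hairpins, hsa-miR-143-5p, also passed and is described beside them.

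There were 12 libraries, 3 in each of 4 groups, made from total RNA with a small RNA kit. MV4-11 MPC1 KO and Molm-14 MPC1 KO cells had been transduced with a lentiviral CRISPR/Cas9 vector that carries a GFP marker and 1 guide against MPC1, a subunit of the carrier that takes pyruvate into mitochondria. MV4-11 EV and Molm-14 EV cells carried an Empty Vector, and no other agent is named for any group. MPC1 was targeted with a single guide, so an effect of the deletion and an effect of that guide or of the transduced population cannot be told apart, and small RNA libraries do not measure MPC1 mRNA. The myeloid markers miR-223 and miR-142, 4 arms in all, were abundant in every library and summed to between 28690 and 68318 CPM (mapped counts scaled to a common library size).

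In the cells where they are best known, miR-143 and miR-145 are made from a shared primary transcript on chromosome 5, the long non-coding RNA CARMN. They are most abundant in smooth muscle, where the factor SRF with its partner myocardin drives them, and p53 is known to raise their level and their processing. Known targets of miR-143 include hexokinase 2, which traps glucose in the cell, and the kinase ERK5. Known targets of miR-145 include the factor KLF4 and the innate immune adaptor TIRAP, and the locus lies in the region lost in myelodysplastic syndrome with a chromosome 5 deletion. Drosha and Dicer cut each hairpin to a duplex of a 5p and a 3p arm, of which usually one is kept.

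The mature sequences are shown first because each count stands for reads of one of these strands. They were taken from RefSeq (GRCh38.p14), are written 5′ to 3′, and have the seed, bases 2 to 8, in capitals.
hsa-miR-143-3p: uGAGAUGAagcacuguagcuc
hsa-miR-143-5p: gGUGCAGUgcugcaucucuggu
hsa-miR-145-5p: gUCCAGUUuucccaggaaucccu
hsa-miR-145-3p: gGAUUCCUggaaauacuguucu

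On the plus strand of chromosome 5, hsa-miR-143-3p lies at chr5:149428978-149428998, hsa-miR-145-5p at chr5:149430661-149430683 and hsa-miR-145-3p at chr5:149430699-149430720. The 3 members have 3 different seeds, so they do not form a seed family. Among the 1068 of 1204 miRNAs in the count table whose name matched a RefSeq mature sequence, no other has the seed of a member. RefSeq lists 2 further miRNAs with GAGAUGA, the seed of hsa-miR-143-3p, namely hsa-miR-4770 and hsa-miR-6088, which were not analysed here.

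The hairpins are shown because the arm ratios below compare strands of one stem. The capitals mark the mature arms, 5p first.
MIR143: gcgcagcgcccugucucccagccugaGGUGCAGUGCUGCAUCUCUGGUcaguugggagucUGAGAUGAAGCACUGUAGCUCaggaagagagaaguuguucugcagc
MIR145: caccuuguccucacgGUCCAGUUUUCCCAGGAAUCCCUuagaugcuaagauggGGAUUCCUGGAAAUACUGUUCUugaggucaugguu

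MIR143 spans chr5:149428918-149429023 and MIR145 spans chr5:149430646-149430733, with 1622 bases between them. Both lie inside CARMN (chr5:149406689-149432835, plus strand) in the GENCODE annotation. Of its 25 annotated transcripts, 3 span both hairpins, and in those MIR143 falls in an exon and MIR145 in an intron. An exon or intron here says where the annotation places the hairpin and not how it is processed.

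The cluster was led by 1 arm in every group. In MV4-11, hsa-miR-143-3p was at 638 ± 52.8 CPM (SD, n = 3 here and below) with EV and 507 ± 50.03 after MPC1 KO. In Molm-14 it was at 179 ± 15.3 CPM with EV and 97.4 ± 2.03 after MPC1 KO. CPM were taken after TMM scaling, which corrects for library composition. Among the 659 miRNAs, its mean ranked from 84 (MV4-11 EV) to 168 (Molm-14 MPC1 KO). hsa-miR-145-5p was at 35.5 ± 11.9, 34.6 ± 7.29, 6.39 ± 2.10 and 3.89 ± 0.421 CPM in the same order. hsa-miR-145-3p was at 22.8 ± 2.16, 23.1 ± 1.59, 3.82 ± 0.820 and 1.28 ± 0.357 CPM. The lowest rank of a member was 604, for hsa-miR-145-3p in Molm-14 MPC1 KO.

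**Figure D1:**
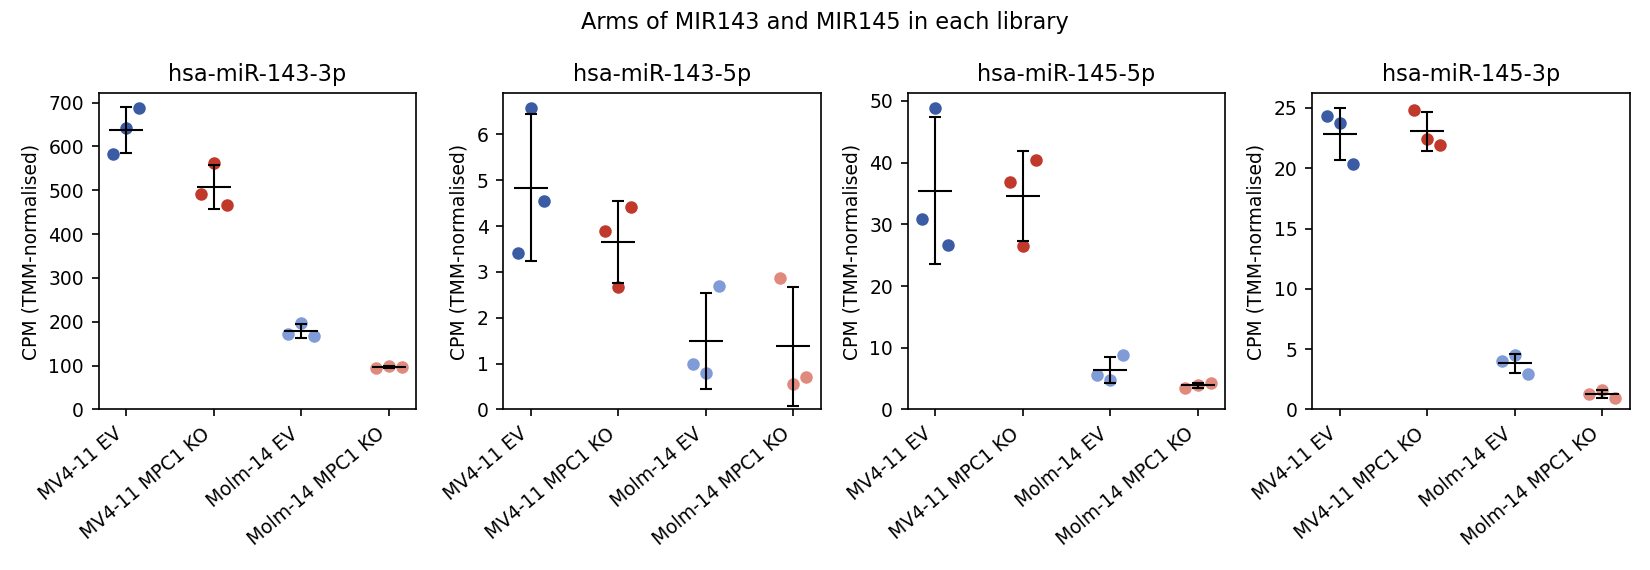
Level of each arm of MIR143 and MIR145 in the 12 libraries, in TMM-normalised CPM on linear axes that start at 0 and differ between panels. Points are libraries, and bars are the mean and SD of 3 libraries. The Molm-14 libraries lie below the MV4-11 libraries for hsa-miR-143-3p, hsa-miR-145-5p and hsa-miR-145-3p, and within Molm-14 the MPC1 KO libraries lie below the EV libraries for these 3 arms, while those of hsa-miR-143-5p overlap.

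Library totals ran from 3870104 to 8683456 counts, and TMM factors from 0.940 to 1.08. The labels do not say whether replicates were separate cultures, so p-values measure the spread between these libraries, which may be technical. Intervals on counts cover counting error only, since reads without molecular identifiers are not independent molecules. Depth was ample for hsa-miR-143-3p, with 413 to 4790 counts a library. For miR-145 it was ample in MV4-11, with 85 to 254 counts an arm and library, and thin in Molm-14, with 18 to 39 counts of hsa-miR-145-5p and 4 to 20 of hsa-miR-145-3p.

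The first comparison asks what loss of MPC1 did to the cluster in MV4-11. The rule for the members covers all libraries and names arm ratios, the line difference and the fall in Molm-14, and no change in MV4-11. Results of all libraries were known when the members were chosen, and the MV4-11 EV libraries also enter the line difference. The p-values of this comparison are therefore not fully independent of the choice. No member passed the test: hsa-miR-143-3p was at a lower level in every MPC1 KO library, short of the threshold, and both miR-145 arms overlapped between the groups. In the edgeR quasi-likelihood test, adjusted over 659 miRNAs, 0 of 3 members passed an adjusted p of 0.05, where 3.03% of all miRNAs did. At an unadjusted p under 0.05 there was 1 member, hsa-miR-143-3p, where 14% of all miRNAs were, and DESeq2 also passed 0.

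hsa-miR-143-3p was at 583, 643 and 688 CPM in the MV4-11 EV libraries and at 491, 563 and 466 CPM in the MPC1 KO libraries. The groups did not overlap, as for 7.13% of all miRNAs in this direction. The fitted log2 fold change was -0.33 (SE 0.10, 95% interval -0.54 to -0.13), with an edgeR adjusted p of 0.0674. An exact two-sided permutation test of the 6 libraries gave p = 0.1, the smallest that 3 against 3 allows. DESeq2 gave an adjusted p of 0.0561. The call depends on single libraries: the edgeR adjusted p was 0.0303 without MV4-11 EV replicate 1 and 0.0276 without MV4-11 MPC1 KO replicate 2, and it ran from 0.0106 to 0.264 over 19 alternatives.

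hsa-miR-145-5p was at 30.9, 48.9 and 26.6 CPM in MV4-11 EV and at 36.9, 26.4 and 40.4 CPM in MPC1 KO. The values interleaved, and EV replicate 2 was the highest of the 6. Its log2 fold change was -0.03 (SE 0.21, 95% interval -0.47 to 0.40, edgeR adjusted p = 0.979), so changes between 0.723-fold and 1.32-fold were not resolved. hsa-miR-145-3p was at 24.3, 23.8 and 20.4 CPM in EV and at 24.9, 22.4 and 21.9 CPM in MPC1 KO. These values overlapped too, with a log2 fold change of 0.01 (SE 0.17, 95% interval -0.35 to 0.36, edgeR adjusted p = 1.0). The exact permutation p was 0.9 for each miR-145 arm. hsa-miR-143-5p, at 16 to 29 counts a library in MV4-11, had a log2 fold change of -0.36 (SE 0.40) with an edgeR adjusted p of 0.768.

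In Molm-14 the whole set of members was at a lower level in MPC1 KO, which is what they were chosen for. hsa-miR-143-3p was at 173, 197 and 168 CPM with EV in this line and at 95.6, 99.6 and 96.8 CPM with KO. Its mean was 45.7% lower, and the KO libraries lay closer together than those of any other group. hsa-miR-145-5p was at 5.59, 4.80 and 8.77 CPM in EV and at 3.42, 4.04 and 4.22 CPM in KO. Its mean was 39.1% lower, and EV replicate 3 stood above the other EV libraries. hsa-miR-145-3p was at 3.99, 4.54 and 2.92 CPM in EV and at 1.26, 1.65 and 0.938 CPM in KO. Its mean was 66.4% lower, on 7, 9 and 4 counts in the KO libraries against 20, 17 and 13 in EV.

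For each of the 3 members, every Molm-14 MPC1 KO library lay below every EV library, as did 14.9% of all miRNAs, and nothing is read from that count because it is what chose them. The fitted log2 fold changes were -0.88 (SE 0.10) for hsa-miR-143-3p, -0.73 (SE 0.32) for hsa-miR-145-5p and -1.52 (SE 0.33) for hsa-miR-145-3p. The value of hsa-miR-145-5p leaned on 1 library, and was -0.42 without Molm-14 EV replicate 3. The other arm of MIR143 was not among the members, and its Molm-14 groups overlapped. hsa-miR-143-5p had 5, 3 and 12 counts in Molm-14 EV and 16, 3 and 3 in MPC1 KO, with KO replicate 1 the highest of the 6 and a log2 fold change of -0.08 (SE 0.59, 95% interval -1.31 to 1.15). At this depth neither a fall of the size seen in hsa-miR-143-3p nor its absence could be shown for this strand. A lower level here can be fewer cells that make the cluster or less of it per cell, which bulk libraries cannot tell apart.

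The distance between the effects in the 2 lines was -0.55 (SE 0.14, 95% interval -0.84 to -0.25) in log2 for hsa-miR-143-3p, as Molm-14 minus MV4-11. It was -0.70 (SE 0.39, 95% interval -1.50 to 0.11) for hsa-miR-145-5p and -1.53 (SE 0.37, 95% interval -2.29 to -0.77) for hsa-miR-145-3p. These differences contain the Molm-14 comparison that chose the members and are given without a test.

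**Figure D2:**
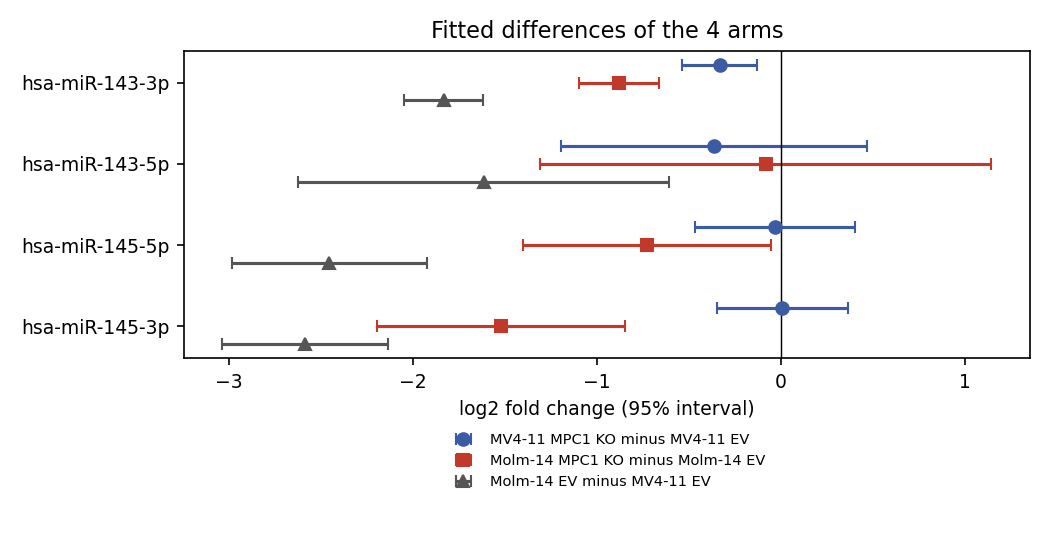
Fitted log2 fold change of the 4 arms, with 95% intervals, for MPC1 KO minus EV in MV4-11 (circles), MPC1 KO minus EV in Molm-14 (squares) and Molm-14 EV minus MV4-11 EV (triangles), all from 1 edgeR fit of 12 libraries. The line difference is the farthest below 0 for every arm, and the MV4-11 intervals of hsa-miR-145-5p, hsa-miR-145-3p and hsa-miR-143-5p span 0.

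For the members, the lines differed more than EV and KO did within either. In the EV cells, hsa-miR-143-3p was 3.56-fold higher in MV4-11 than in Molm-14, hsa-miR-145-5p 5.55-fold and hsa-miR-145-3p 5.98-fold. The fitted log2 differences, Molm-14 minus MV4-11, were -1.83 (SE 0.10), -2.46 (SE 0.26) and -2.59 (SE 0.22). No Molm-14 EV library reached an MV4-11 EV library for any of these arms, as for 29.3% of all miRNAs in this direction. hsa-miR-143-5p was 3.23-fold higher in MV4-11 EV, with a log2 difference of -1.62 (SE 0.49), also without overlap. Between the MPC1 KO cells the distance was 5.20-fold for hsa-miR-143-3p, 8.89-fold for hsa-miR-145-5p and 18.0-fold for hsa-miR-145-3p, where 31.4% of all miRNAs lay fully below in Molm-14. Line differences were common in these libraries, since 61.9% of all miRNAs passed an adjusted p of 0.05 between the EV cells.

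The levels of hsa-miR-143-3p fell into 1 order. MV4-11 with EV was highest, then MV4-11 without MPC1, Molm-14 with EV and last Molm-14 without MPC1, with no overlap between neighbours. Fully lower in MPC1 KO were 7.13% of all miRNAs in MV4-11 and 14.9% in Molm-14, while the share for the step between the lines was not taken. The line difference and the Molm-14 fall are named in the rule for the members, so the order is a description. For hsa-miR-145-5p and hsa-miR-145-3p the MV4-11 groups overlapped each other at the top, followed by Molm-14 EV and then Molm-14 MPC1 KO.

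Arm ratios ask whether the 2 strands of a hairpin, or the 2 hairpins, kept their proportion. They were taken from raw counts within a library, so scaling does not enter. Arm ratios are named in the rule that chose the members, so they are given as a description and carry no p. In MV4-11, hsa-miR-145-3p made up 44.1%, 32.7% and 43.4% of miR-145 counts in the EV libraries and 40.3%, 45.9% and 35.1% in the MPC1 KO libraries. The means of 40.04 ± 6.36% and 40.4 ± 5.38% differed by 0.380 percentage points, less than the spread between replicates.

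In Molm-14 the share of hsa-miR-145-3p was 41.7%, 48.6% and 25.0% in EV and 26.9%, 29.0% and 18.2% in MPC1 KO. The groups overlapped through EV replicate 3, and the means were 38.4 ± 12.1% and 24.7 ± 5.75%. Over the pooled counts it was 37.0% (50 of 135, exact Clopper-Pearson 95% interval 28.9 to 45.8%) in EV and 25.3% (20 of 79, 95% interval 16.2 to 36.4%) in MPC1 KO, and these intervals overlap. With 1 library left out, the difference of -13.7 percentage points ran from -20.4 without EV replicate 3 to -8.62 without EV replicate 2. A shift of the arm share in Molm-14 was not resolved at this depth.

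Reads of hsa-miR-143-3p per read of hsa-miR-145-5p averaged 19.3 ± 6.39 with EV and 15.4 ± 5.20 with MPC1 KO in MV4-11. In Molm-14 they averaged 30.3 ± 10.9 with EV and 25.2 ± 2.57 with MPC1 KO. In MV4-11 the log2 ratio differed by -0.33 between KO and EV. With 1 library left out it differed by -0.59 to -0.086, lowest without KO replicate 2 and highest without EV replicate 3. Without EV replicate 2 it was -0.58 and without KO replicate 3 -0.14. In Molm-14 it differed by -0.20, less than the SD of 0.55 between the EV libraries. Within MIR143, the 3p arm had 138 reads per read of the 5p arm over the pooled MV4-11 EV libraries and 140 over the KO libraries. In Molm-14 it had 118 with EV, on 20 reads of the 5p arm, and 67.6 with KO, on 22 reads. These values rest on single libraries: the first was 200.4 without EV replicate 3 and the second 159 without KO replicate 1. These are ratios of reads and not of molecules.

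**Figure D3:**
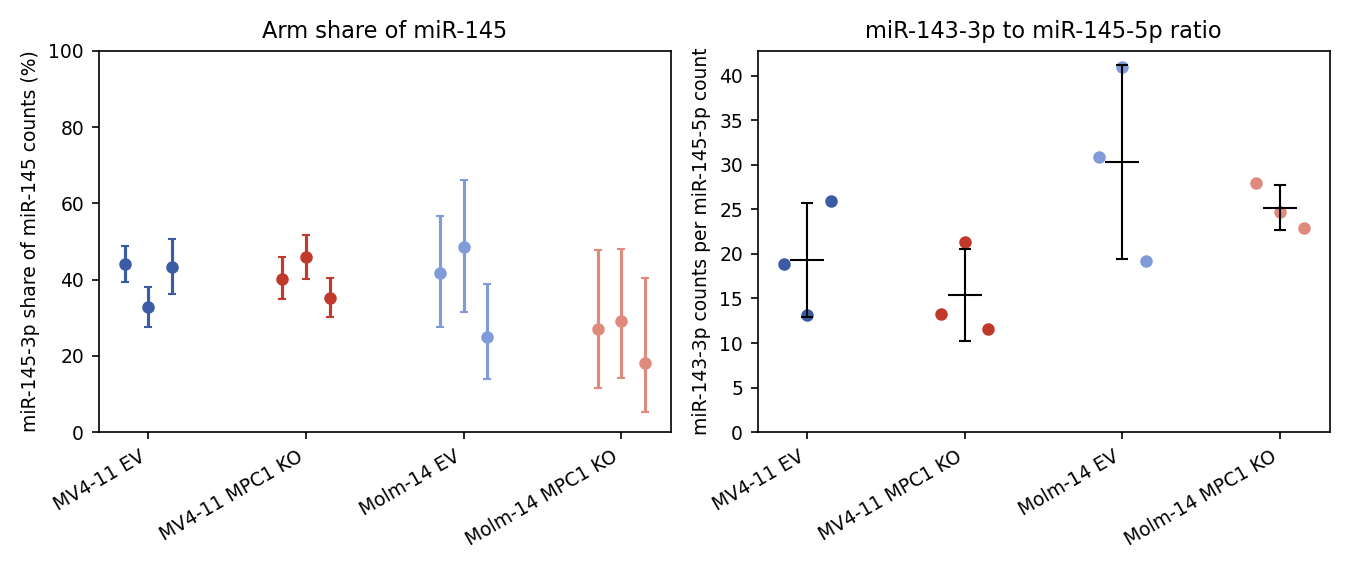
Left, hsa-miR-145-3p as a percentage of all miR-145 counts in each library, with exact 95% binomial intervals. Right, counts of hsa-miR-143-3p per count of hsa-miR-145-5p in each library, with the mean and SD of 3 libraries. The MV4-11 shares lie between 32.7% and 45.9% in both genotypes, and the Molm-14 intervals are wider and overlap between EV and MPC1 KO.

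The chromosome neighbourhood of the cluster was examined next. Within 10 Mb of MIR143 the table held 7 other miRNAs, of which 4 passed the filter. hsa-miR-584-5p, on the minus strand at -367 kb from the start of MIR143, was the one that fell in Molm-14 MPC1 KO. It was at 150, 147 and 146 CPM with EV in Molm-14 and at 92.2, 85.7 and 87.2 CPM after KO. The groups were far apart, with a log2 fold change of -0.74 (SE 0.13, edgeR adjusted p = 4.57e-04), in a comparison where 6.83% of all miRNAs passed, 4.1% as lower and 2.73% as higher in MPC1 KO. Its opposite arm, hsa-miR-584-3p, did not pass the filter and had 7, 10 and 11 counts in Molm-14 EV against 4, 4 and 2 in MPC1 KO.

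In MV4-11, hsa-miR-584-5p was at 12.2 ± 2.04 CPM in EV and 9.80 ± 2.13 in MPC1 KO, a log2 fold change of -0.29 (SE 0.18, edgeR adjusted p = 0.532). The difference between its effects in the lines was -0.45 (SE 0.22, edgeR adjusted p = 0.279), in a comparison where 6.68% of all miRNAs passed. Between the lines it ran against the cluster, being higher in Molm-14 EV by 3.63 in log2 (SE 0.16, edgeR adjusted p = 4.28e-16). The other neighbours that passed the filter did not pass the test in Molm-14. hsa-miR-378a-5p, an intronic miRNA of the metabolic coactivator gene PPARGC1B, had a log2 fold change of -0.11 (SE 0.09, edgeR adjusted p = 0.592). hsa-miR-1294 had -0.19 (SE 0.25, edgeR adjusted p = 0.757), and hsa-miR-378a-3p, at 2 to 15 counts a library, had 1.44 (SE 0.49, edgeR adjusted p = 0.0791). Both hsa-miR-378a-5p (0.45) and hsa-miR-1294 (2.14) were also higher in Molm-14 EV than in MV4-11 EV, with edgeR adjusted p of 1.85e-04 and 9.08e-07. Of these 4 neighbours, 3 were higher and 1 lower in Molm-14 EV by edgeR, where 33.5% and 28.4% of all miRNAs were, with a median log2 difference of 1.29 beside 0.06 over all miRNAs. The lower one was hsa-miR-378a-3p (-1.16, SE 0.50, edgeR adjusted p = 0.0498, at 2 to 15 counts), and DESeq2 called 3 of the 4. It comes from the same hairpin as hsa-miR-378a-5p, which had 1509 to 2679 counts a library, so these are not separate loci.

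**Figure D4:**
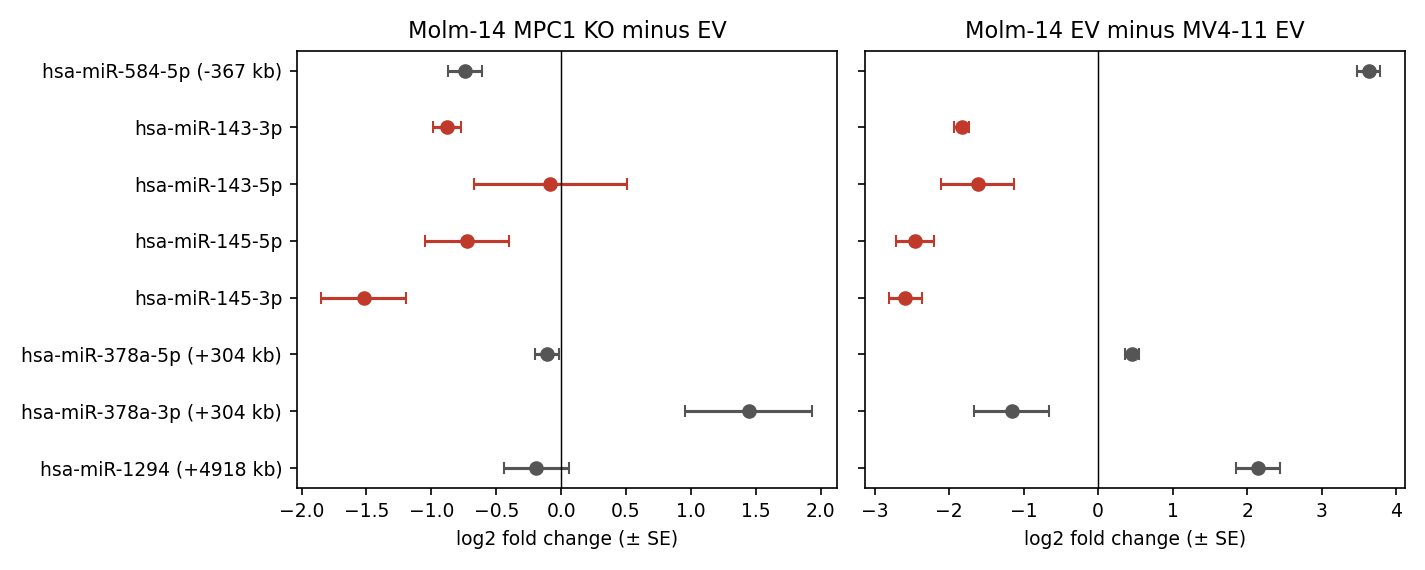
Fitted log2 fold change with its standard error for the arms of the cluster (red) and the 4 tested miRNAs within 10 Mb (grey), in chromosome order with the distance from MIR143 in kb. Left, Molm-14 MPC1 KO minus EV. Right, Molm-14 EV minus MV4-11 EV. hsa-miR-584-5p lies with the cluster on the left (-0.74) and on the opposite side of 0 on the right (3.63).

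Markers of smooth muscle and other stromal cells bear on the cluster because those cells carry most of it in tissue. Of 9 listed miRNAs, 5 were in the table and 4 passed the filter, while hsa-miR-218-5p had 0 or 1 count in every library and both arms of miR-214 were not analysed here. The list summed to 2781 to 3374 CPM with EV and 2582 to 2989 with MPC1 KO in MV4-11. In Molm-14 it summed to 7834 to 9318 CPM with EV and 7003 to 7183 with MPC1 KO. It was thus highest where the cluster was low between the lines, and lower in Molm-14 MPC1 KO than in EV, as the cluster was. Nearly all of that sum was hsa-miR-199b-5p in every group. In Molm-14 it went from 8673 ± 776 CPM with EV to 7015 ± 98.9 after KO, a log2 fold change of -0.31 (SE 0.10, edgeR adjusted p = 0.0687). Its part in the cluster's lower level was not tested. hsa-miR-497-5p, a cell cycle inhibitor of the miR-15 family, rose in Molm-14 MPC1 KO by 0.86 in log2 (SE 0.19, edgeR adjusted p = 0.00364), from 15.3 ± 2.26 to 27.7 ± 1.91 CPM. In MV4-11 MPC1 KO 0 of 4 passed, where 3.03% of all miRNAs did, with 0 at an unadjusted p under 0.05 and 0 by DESeq2. The list's median in Molm-14 MPC1 KO was 0.04, beside -0.01 over all miRNAs, and in the EV line comparison 4 of 4 were higher in Molm-14, as were 33.5% of all miRNAs, with a median of 1.54.

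Epithelial markers, the miR-200 family among them, shared the line difference. All 5 that passed the filter, of 7 listed, were lower in Molm-14 EV than in MV4-11 EV, where 28.4% of all miRNAs were, with a median log2 difference of -2.02 and a summed level of 337 to 381 CPM in MV4-11 EV and 131 to 151 CPM in Molm-14 EV. The listed markers that did not pass the filter, hsa-miR-203a-3p and hsa-miR-205-5p, had at most 9 and 2 counts. Between EV and MPC1 KO, 0 of 5 passed in either line by edgeR. Of all miRNAs, 3.03% passed in MV4-11 and 6.83% in Molm-14. In MV4-11 there were 4 at an unadjusted p under 0.05, where 14% of all miRNAs were, and 1 by DESeq2. In Molm-14 there were 0 and 0. Their part in the line difference of the cluster was not tested. Myeloid (4), endothelial (2), erythroid (4), lymphoid (1) and hepatocyte (1) markers gave 0 calls in either MPC1 KO comparison, by edgeR, at an unadjusted p under 0.05 and by DESeq2.

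The miRNAs with a well known response to p53 were set beside the cluster because p53 is known to raise it. Of 10 listed, 7 passed the filter. In Molm-14 MPC1 KO 1 of them rose and 0 fell, where 2.73% and 4.1% of all miRNAs did. The list's median log2 fold change was 0.12, beside -0.01 over all miRNAs. The one that rose was hsa-miR-34c-5p, of the miR-34 family that p53 transcribes directly, by 0.89 in log2 (SE 0.23, edgeR adjusted p = 0.0131). In 2 of 12 fits with 1 library left out it lost the call, with an edgeR adjusted p of up to 0.112. A part of p53 in the level of the cluster was not tested. hsa-miR-34a-5p, its abundant relative, was at 477 ± 23.8 CPM with EV and 529 ± 5.97 with KO in this line (log2 fold change 0.15, SE 0.09, edgeR adjusted p = 0.386). In MV4-11 MPC1 KO 0 of 7 passed by edgeR and by DESeq2, with 1 at an unadjusted p under 0.05. Of all miRNAs, 3.03% passed by edgeR in this comparison and 14% were at an unadjusted p under 0.05. Between the EV cells 5 of 7 were lower and 1 higher in Molm-14 by edgeR, where 28.4% and 33.5% of all miRNAs were, and DESeq2 called 4 of 7. They were led by hsa-miR-192-5p at 335 ± 6.96 CPM in MV4-11 and 54.2 ± 5.13 in Molm-14 (-2.63 in log2, edgeR adjusted p = 1.27e-15).

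Profiles over the 12 libraries were compared by the root mean square distance of log2 CPM, each miRNA centred on its own mean, which describes likeness and tests nothing. The miRNA closest to hsa-miR-143-3p among 656 was hsa-miR-628-5p (0.329), followed by hsa-miR-421, hsa-miR-181b-3p, hsa-miR-1908-5p and hsa-miR-589-5p (0.368). All 5 lie on other chromosomes, and their log2 fold changes on MPC1 loss in Molm-14 ran from -0.30 to -0.01, while their EV line differences ran from -2.36 to -1.93. hsa-miR-145-5p was closest to hsa-miR-192-5p (0.416), hsa-miR-421, hsa-miR-200b-3p, hsa-miR-200a-3p and hsa-miR-642a-5p (0.465). hsa-miR-145-3p was closest to hsa-miR-328-3p (0.490), hsa-miR-192-5p, hsa-miR-1286, hsa-miR-338-3p and hsa-miR-598-5p (0.581). Among these, hsa-miR-1286 and hsa-miR-598-5p averaged 0 CPM in both Molm-14 groups, and hsa-miR-338-3p at most 0.089 CPM. Their EV line differences were -7.85, -7.74 and -5.19 in log2, beside -2.59 for hsa-miR-145-3p. In Molm-14 their distances to it therefore rest on the pseudocount of 0.5 CPM.

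The members were not each other's closest profiles. The distance between hsa-miR-143-3p and hsa-miR-145-5p was 0.477, with 15 other miRNAs closer to the former. The distance between the arms of miR-145 was 0.493, and 1 other miRNA was closer to hsa-miR-145-3p. These distances hold counting error, which is largest for the miR-145 arms in Molm-14.

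The RefSeq promoter window of CARMN is given because the members were lower together in Molm-14 MPC1 KO and the host transcript is their known source. It covers 250 bases before and 50 after the annotated start, on the plus strand at chr5:149406595-149406894, and other starts of CARMN were not examined. This RefSeq start, at 149406845, lies 156 bases inside the gene as GENCODE annotates it. Capitals mark CACGTG, the letters that MYC family factors bind.
CARMN promoter: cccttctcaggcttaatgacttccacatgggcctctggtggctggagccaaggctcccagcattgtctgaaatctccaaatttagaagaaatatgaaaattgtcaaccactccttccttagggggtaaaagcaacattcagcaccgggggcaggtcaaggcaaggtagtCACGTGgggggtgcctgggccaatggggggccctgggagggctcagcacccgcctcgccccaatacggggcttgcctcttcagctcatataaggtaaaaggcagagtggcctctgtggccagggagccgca

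CACGTG occurred 1 time, 81 bases before the RefSeq start, and 7.26% of 35116 promoter windows of this length hold it on either strand. A p53 response element is built of a pair of 10-base units. A single such unit matched 1 time, as GGGCTTGCCT starting 14 bases before the start and apart from CACGTG, and 6.63% of windows hold a single unit. The full element was not searched for. The CArG box, the motif of SRF, had 0 matches here and is held by 1.29% of windows. A match is a run of letters and not a bound site, and its absence covers this window only.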

How the data were processed

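Small RNA was sequenced from 12 libraries, 3 for each of MV4-11 EV, MV4-11 MPC1 KO, Molm-14 EV and Molm-14 MPC1 KO. The authors deposited whole-number counts of reads per miRNA. The submitters' processing notes name STAR 2.5.2, featureCounts 1.5.1 and GRCh38, without role or order, and the counting of reads with several matches is not given in the sources used here. miRNAs kept by filterByExpr (minimum count 10) were fitted with edgeR 4.0.16 (R 4.3.3; TMM, robust quasi-likelihood test, 4 group means, all 12 libraries), with Benjamini-Hochberg adjustment over 659 miRNAs. DESeq2 1.42.0, other scalings, no filter, single-line fits, a replicate block and leaving out each library were alternatives. Exact permutation tests used SciPy 1.17.1. Replicate pairs differed beyond counting noise (chi-square per degree of freedom 11.4 or more). The edgeR step was tested on simulated data: for MPC1 KO minus EV in MV4-11 on 631 miRNAs it recovered 75 of 95 changed by 1 and 96 of 96 changed by 2 in log2, with 8 false calls. For Molm-14, on 620 miRNAs, it recovered 76 of 93 and 89 of 94, with 7 false calls. The simulation set each miRNA at its mean over all 12 libraries, so it held no line difference. It planted no change under 1 in log2. The rates therefore do not apply to smaller changes or to the low counts in Molm-14. The members and lists were chosen with earlier results of these data known. Named miRNAs are the members, the other arm of their hairpins, miRNAs sharing a seed, those within 10 Mb, the 5 nearest profiles of each member (pseudocount 0.5 CPM), the marker lists and the p53 list. Mature names matched RefSeq for 1068 of 1204 miRNAs.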

Additional observations from a re-analysis of the deposited data

Results flagged for a closer look

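The effect of MPC1 loss on hsa-miR-34c-5p differed between the lines by 1.28 in log2 (Molm-14 minus MV4-11, SE 0.32, edgeR adjusted p = 0.0154). It was at 10.8, 11.6 and 7.18 CPM in MV4-11 EV and 7.38, 7.69 and 7.59 CPM in MV4-11 MPC1 KO (log2 fold change -0.40, SE 0.22, edgeR adjusted p = 0.459). In Molm-14 it was at 6.79, 6.67 and 5.85 CPM in EV and 11.3, 13.9 and 10.3 CPM in MPC1 KO. The test of the difference of effects is what drew attention to it among 32 miRNAs of the marker, p53 and neighbour lists, and it was 1 of 32, where 6.68% of all miRNAs passed. The edgeR adjusted p of that difference became 0.0574 without Molm-14 EV replicate 3 and 0.0532 without Molm-14 MPC1 KO replicate 2, while the rise in Molm-14 then had 0.0626 and 0.112. Groups of 3 libraries are too small for a test of single outlying libraries.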

How the results depend on the processing

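Of the values recomputed under alternatives, 428 stayed the same, 3 gained a call, 4 lost one (all hsa-miR-34c-5p), 14 moved and 14 changed sign, none of these last a called value. A tested value stayed the same if it kept its direction and side of the threshold. Values of the members given without a test, and all arm ratios, stayed the same if they kept their sign and changed by less than the SD between replicates. Numbers of calls stayed the same within a set factor. Otherwise these untested values and numbers moved. Upper-quartile factors put the median of all miRNAs at -0.12 in log2 in MV4-11, -0.12 between the EV lines and 0.18 in the difference of effects. With TMM these medians were -0.0035, 0.06 and -0.0036, so part of the changes given next is a move of the whole scale. Under upper-quartile factors hsa-miR-143-3p was at -0.44 in MV4-11 (edgeR adjusted p = 0.0106), -2.01 between the EV lines and -0.36 in the difference of effects. Relative to the upper-quartile median this is -0.32, -1.89 and -0.55. hsa-miR-145-3p was at -0.10 in MV4-11 under these factors. The upper-quartile factors also turned the MV4-11 calls from 13 higher and 7 lower to 10 and 15, and the Molm-14 calls from 18 and 27 to 30 and 23. The calls of the difference went from 16 and 28 to 31 and 13. With total counts hsa-miR-145-5p was at 0.039 in MV4-11, and with a fit of each line alone hsa-miR-145-3p was at -0.027. DESeq2 called 31 miRNAs in MV4-11 in place of 20. From pooled counts the hsa-miR-145-3p share in MV4-11 differed by -0.0817 percentage points. The cause of these changes was not tested.

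Leaving out 1 library at a time, the number called in MV4-11 ran from 12 (without MV4-11 MPC1 KO replicate 1) to 38 (without Molm-14 EV replicate 2, and 34 without replicate 3), and in the difference of effects from 22 (without MV4-11 MPC1 KO replicate 3) to 53. In MV4-11 hsa-miR-143-3p ran from -0.43 to -0.26, hsa-miR-145-5p from -0.20 to 0.25, hsa-miR-145-3p from -0.073 to 0.075 and the hsa-miR-145-3p share from -3.29 to 3.03 percentage points. In Molm-14 hsa-miR-143-3p ran from -0.92 to -0.78, and the log2 ratio of hsa-miR-143-3p to hsa-miR-145-5p from -0.50 to 0.046.

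The labels do not say whether replicate numbers pair the libraries. In deviations from group means, same-numbered EV and KO libraries correlated at 0.095, -0.079 and -0.13 in MV4-11 and -0.026, 0.12 and 0.032 in Molm-14. Differently numbered ones reached 0.198 in MV4-11 and 0.101 in Molm-14. Such weak correlations do not settle whether the libraries were prepared as pairs. With the replicate block, hsa-miR-143-3p in MV4-11 kept -0.33 (adjusted p = 0.0695), 23 miRNAs were called in MV4-11, 52 in Molm-14 and 34 in the difference of effects. Depth limits the miR-145 arms and hsa-miR-143-5p in Molm-14, at 3 to 39 counts a library.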
